A study of Schizosaccharomyces pombe with 8 samples.

Results

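The genes described here are the 10 best known components of the Sty1 stress kinase pathway of the fission yeast Schizosaccharomyces pombe, out of 5165 genes in the deposited table. They were listed by name as upstream kinases and feedback targets, with earlier results of these data known, and all 10 passed the filter on low values. They are sty1 (SPAC24B11.06c), wis1 (SPBC409.07c), wis4 (SPAC9G1.02), win1 (SPAC1006.09), mcs4 (SPBC887.10), atf1 (SPBC29B5.01), pcr1 (SPAC21E11.03c), pyp1 (SPAC26F1.10c), pyp2 (SPAC19D5.01) and srk1 (SPCC1322.08). Poly(A) RNA was sequenced in 8 libraries, 2 in each of 4 groups. The groups were a pgr1 mutant with H2O2, the same mutant untreated, wild type (strain 972) with H2O2, and wild type untreated. The treatment was 1 mM hydrogen peroxide for 30 min, and all cells came from YE5S cultures, a rich yeast extract medium, at 30 °C and an OD600 of 0.5. The series' design text calls the mutant a pgr1 deletion, the labels name no other allele in it, and pgr1 encodes glutathione reductase, which keeps glutathione in its reduced form. Only 1 mutant strain was compared, so an effect of the deletion cannot be told apart from other differences between the strains, and in bulk cultures more RNA per cell cannot be told apart from more cells that carry it.

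Sty1 is a mitogen-activated protein (MAP) kinase that many stresses switch on, peroxide among them. Signals pass through a histidine phosphorelay to the response regulator Mcs4, which binds the MAP kinase kinase kinases Wis4 and Win1, and these activate the MAP kinase kinase Wis1, which phosphorylates Sty1. Active Sty1 acts through the paired leucine zipper (bZIP) factors Atf1 and Pcr1, which bind the cAMP response element, a site with the core TGACGT. The tyrosine phosphatases Pyp1 and Pyp2 switch Sty1 off, and Srk1 is a kinase that Sty1 activates and that delays entry into mitosis. Transcripts of pyp2 and srk1 are known targets of the pathway, so that the kinase induces its own phosphatase. RNA levels do not report how much of a kinase is phosphorylated.

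The 250 bases before the annotated transcript start of each gene were searched on both strands for TGACGT, and for the longer forms TGACGTCA and TGACGTAA, which contain it. TGACGT was found upstream of 2 of the 10 genes, atf1 and srk1, against 5.53% of 5096 protein-coding genes. The palindrome TGACGTCA, which reads as TGACGT on both strands, stood 52 bases before the start of atf1 and was found before no other of the 10 genes, against 0.275% of all promoters. TGACGTAA was found before none of the 10, against 0.628% of all promoters. Upstream of srk1 there were 3 matches, whose first bases stood 114, 56 and 37 bases before the start, the middle one on the strand of the gene. Both stretches are shown because these 2 genes were the ones of the 10 with a match, and both were called higher with H2O2 in each strain and in the untreated mutant against untreated wild type. They are from RefSeq ASM294v3, 5′ to 3′ on the plus strand, which is the strand of both genes, and capitals mark the matches.
atf1, chromosome II, 72 to 25 bases before the start: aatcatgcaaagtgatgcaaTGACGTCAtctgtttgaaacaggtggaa
srk1, chromosome III, 134 to 12 bases before the start: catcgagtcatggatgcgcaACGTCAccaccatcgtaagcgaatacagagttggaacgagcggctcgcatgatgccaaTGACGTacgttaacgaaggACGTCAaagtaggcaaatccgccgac
In a window of 1000 bases, chosen after seeing the data, pyp2 also had TGACGT, with 2 matches 979 and 783 bases before its start, and 14.9% of all promoters had a match in that window. A match of these letters is a description and was not tested for binding.

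Levels are the authors' normalized counts, which are read counts divided by a size factor of each library. The depth was 12026222 to 14125543 recovered reads per library. After the division the values summed to 1.39e+07 to 1.49e+07 in treated libraries and 1.10e+07 to 1.20e+07 in untreated ones. Small changes with H2O2 can therefore depend on the scaling. The values after a fold change are log2 values ± SE from limma on log2(normalized count + 1), fitted to all 8 libraries with n = 2 in each group, and a gene is called at a Benjamini-Hochberg adjusted p below 0.05 over 5028 genes tested. The labels do not say whether the 2 libraries of a group are separate cultures, so the spread between them may be technical. The pgr1 transcript had 92.9 and 105 normalized counts in the treated mutant and 159 and 91.4 in the untreated mutant, against 7201 and 6792 in treated wild type and 4939 and 4805 in untreated wild type. In RefSeq, 82% of the sty1 transcript, 100% of pyp1 and 85.9% of pyp2 lie opposite another annotated gene. Opposite genes with values in the table cover 0%, 0% and 1.88% of them. The kit marks strand but the strand setting of the counting is not given, so reads of these 3 genes, and of the 42% of wis4 and 48.8% of win1 that lie opposite other genes, cannot be told apart from those of the opposite strand.

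The upstream genes did not move together with peroxide: in both strains wis1 and win1 fell, sty1 rose, mcs4 was not called, and wis4 differed between the strains. The kinase gene sty1 had 8769 and 9077 normalized counts in the treated mutant, 3839 and 3787 in the untreated mutant, 6681 and 6189.7 in treated wild type and 4700.4 and 3867 in untreated wild type. Treated libraries lay above untreated ones in both strains, and the treated mutant lay above treated wild type. With H2O2, sty1 rose by 1.23 ± 0.09 in the mutant (limma, adjusted p = 5.09e-06) and by 0.59 ± 0.09 in wild type (limma, adjusted p = 3.65e-04). The difference between these responses was 0.63 ± 0.13 and passed (limma, adjusted p = 0.00814). The wild-type rise depended on the scaling, with 0.16 under quantile normalization (limma, adjusted p = 0.157). After H2O2 sty1 was higher in the mutant than in wild type by 0.47 ± 0.09 (limma, adjusted p = 0.00315), while untreated it was at -0.16 ± 0.09 (limma, adjusted p = 0.204). Without the second untreated wild-type library that last value was -0.30 and passed (limma, adjusted p = 0.0284).

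The transcript of wis1, the kinase that phosphorylates Sty1, had 653 and 639 normalized counts in the treated mutant, 1254 and 1107 in the untreated mutant, 504 and 612 in treated wild type, and 1030.4 and 1239.8 in untreated wild type. All 4 treated libraries were below all 4 untreated ones. It was 1.82-fold lower with H2O2 in the mutant, with an SE of 0.12 on the log2 scale (limma, adjusted p = 2.24e-04), and 2.03-fold lower in wild type, with the same SE (limma, adjusted p = 5.83e-05). The MAP kinase kinase kinase gene win1 had a like pattern, with 959.6 and 1028 normalized counts in the treated mutant, 2166 and 2064 in the untreated mutant, 867 and 983 in treated wild type, and 1893 and 1640 in untreated wild type. Here too the treated and untreated libraries did not overlap in either strain. It fell by 1.09 ± 0.09 in the mutant (limma, adjusted p = 1.06e-05) and by 0.93 ± 0.09 in wild type (limma, adjusted p = 1.88e-05). For neither gene did the strains' responses differ by the test, at 0.16 ± 0.17 for wis1 (limma, adjusted p = 0.558) and -0.16 ± 0.13 for win1 (limma, adjusted p = 0.43). Between the untreated strains win1 was at 0.26 ± 0.09 and missed the threshold (limma, adjusted p = 0.0532), but passed without the first untreated wild-type library, at 0.37 (limma, adjusted p = 0.0246), or without either library of treated wild type.

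The other MAP kinase kinase kinase gene, wis4, had 2148 and 2126 normalized counts in the treated mutant, 2718 and 2359 in the untreated mutant, 2975 and 3718 in treated wild type, and 2513 and 2212.5 in untreated wild type. Treated wild type held the highest values and the treated mutant the lowest. With H2O2 wis4 was at -0.24 ± 0.12 in the mutant (limma, adjusted p = 0.0893) and rose by 0.50 ± 0.12 in wild type (limma, adjusted p = 0.00389). Both calls depended on the setting: quantile normalization gave -0.54 in the mutant, which passed (limma, adjusted p = 0.00313), and 0.12 in wild type, which did not (limma, adjusted p = 0.391). The mutant value of -0.24 also passed when only the 2 groups compared were fitted (limma, adjusted p = 0.0177) and without the first or the second treated wild-type library (limma, adjusted p = 0.0419 and 0.0416). The difference of the responses was -0.74 ± 0.16 (limma, adjusted p = 0.0105) and passed under every setting tried, at -0.90 to -0.58. None of these settings changed how reads were assigned to genes. Of the wis4 transcript 6.08% lies opposite genes with values in the table (SPAC9G1.14 and rpl3001), and 4.84% of its 31-base words recur elsewhere among the transcripts. Whether such reads add to the difference was not tested. After H2O2 wis4 was lower in the mutant than in wild type, at -0.64 ± 0.12 (limma, adjusted p = 0.002). The response regulator gene mcs4 ranged from 1267 to 1756 normalized counts over the 8 libraries. It was at -0.06 ± 0.11 with H2O2 in the mutant (limma, adjusted p = 0.648) and -0.27 ± 0.11 in wild type (limma, adjusted p = 0.0587), the second of which passed under 8 of its 18 alternatives.

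**Figure D1:**
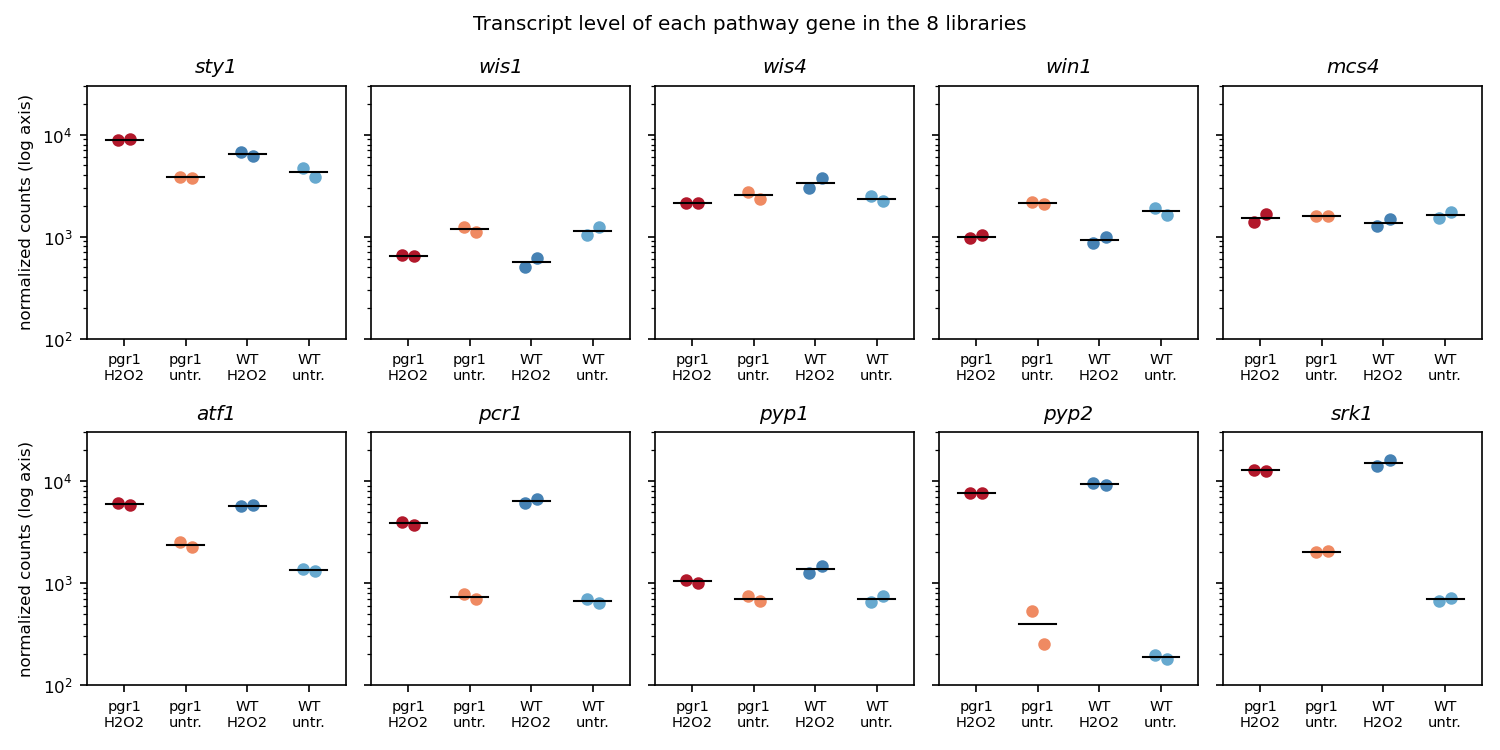
Normalized counts (vertical log axis) of the 10 pathway genes in the 8 libraries, with the groups along the horizontal axis ("untr." is untreated); points are single libraries and the bar is the mean of 2. The upper row holds the upstream genes, between 504 and 9077; in the lower row pyp2 and srk1 span 179 to 16040.

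The paired bZIP factor genes atf1 and pcr1 both rose with H2O2, each by less in the mutant than in wild type, but they did not behave alike. The atf1 transcript had 6093.5 and 5854.5 normalized counts in the treated mutant, 2509.9 and 2247 in the untreated mutant, 5644 and 5777 in treated wild type, and 1361 and 1303 in untreated wild type. The treated levels of the strains lay close together, and the untreated mutant lay above untreated wild type. With H2O2 it rose by 1.33 ± 0.07 in the mutant (limma, adjusted p = 7.32e-07) and by 2.10 ± 0.07 in wild type (limma, adjusted p = 2.09e-08), a difference of -0.77 ± 0.10 (limma, adjusted p = 8.65e-04). Between strains it was at 0.06 ± 0.07 after H2O2 (limma, adjusted p = 0.481) and was higher in the untreated mutant by 0.83 ± 0.07 (limma, adjusted p = 2.95e-05).

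The pcr1 transcript had 3962 and 3743 normalized counts in the treated mutant, 776 and 697 in the untreated mutant, 6098 and 6616 in treated wild type, and 692 and 635 in untreated wild type. Here the untreated strains lay close together, and the treated mutant lay below treated wild type. With H2O2 it rose by 2.39 ± 0.08 in the mutant (limma, adjusted p = 7.45e-08) and by 3.26 ± 0.08 in wild type (limma, adjusted p = 5.15e-09), a difference of -0.87 ± 0.12 (limma, adjusted p = 9.25e-04). Between strains it was lower in the mutant after H2O2, at -0.72 ± 0.08 (limma, adjusted p = 1.52e-04), and at 0.15 ± 0.08 untreated (limma, adjusted p = 0.182). The smaller responses of atf1 and pcr1 in the mutant thus went with different levels, a higher untreated level for atf1 and a lower treated level for pcr1.

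Of the phosphatase genes, pyp2 had the widest range of group means among the 10. It had 7692 and 7601 normalized counts in the treated mutant, 533 and 252 in the untreated mutant, 9601 and 9085 in treated wild type, and 199 and 179 in untreated wild type. The 2 untreated mutant libraries stood far apart, though both were above untreated wild type. With H2O2 pyp2 rose by 4.38 ± 0.27 in the mutant (limma, adjusted p = 1.5e-06) and by 5.62 ± 0.27 in wild type (limma, adjusted p = 1.43e-07). The difference of these responses was -1.25 ± 0.38 (limma, adjusted p = 0.039), and the untreated mutant was higher than untreated wild type by 0.96 ± 0.27 (limma, adjusted p = 0.0208). Both of these calls depended on the setting. The difference of the responses was -0.71 without the first untreated mutant library and -1.78 without the second, and the untreated strain difference was 0.42 without the first and 1.50 without the second. Both were lost under quantile normalization, at -1.03 (limma, adjusted p = 0.107) and 0.73 (limma, adjusted p = 0.0717). The untreated difference was also lost without the second untreated wild-type library, at 0.88 (limma, adjusted p = 0.0755), and when only the 2 groups compared were fitted (limma, adjusted p = 0.0782). The difference of the responses was also lost without that library, either treated mutant library or either treated wild-type library, at -1.29 to -1.17 (limma, adjusted p = 0.0794 to 0.111). Between the treated strains pyp2 was at -0.29 ± 0.27 (limma, adjusted p = 0.4). That value passed when only the 2 groups compared were fitted (limma, adjusted p = 0.0102) and without the first or the second untreated mutant library (limma, adjusted p = 0.0163 and 0.0157).

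The second phosphatase gene, pyp1, had 1066 and 1007 normalized counts in the treated mutant, 747 and 659.7 in the untreated mutant, 1268 and 1469 in treated wild type, and 649.6 and 749 in untreated wild type. Treated libraries were above untreated ones in both strains, and the untreated strains overlapped. With H2O2 it rose by 0.56 ± 0.11 in the mutant (limma, adjusted p = 0.00143) and by 0.97 ± 0.11 in wild type (limma, adjusted p = 3.55e-05), and the difference of -0.41 ± 0.15 did not pass (limma, adjusted p = 0.0813). It was -0.51 and passed without the second untreated wild-type library (limma, adjusted p = 0.0483) or the first treated one (limma, adjusted p = 0.0452). After H2O2 it was lower in the mutant, at -0.40 ± 0.11 (limma, adjusted p = 0.0143). That call was lost without the second library of treated wild type, at -0.29 (limma, adjusted p = 0.089), and without the second library of the treated mutant, at -0.36 (limma, adjusted p = 0.0932).

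The kinase gene srk1 reached the highest normalized counts of the 10. It had 12992 and 12582 in the treated mutant, 2015 and 2050.4 in the untreated mutant, 14074 and 16040 in treated wild type, and 666 and 718 in untreated wild type. The untreated mutant stood clearly above untreated wild type, at 13.5% of the level of treated wild type, against 4.6% for untreated wild type. With H2O2 srk1 rose by 2.65 ± 0.08 in the mutant (limma, adjusted p = 3.65e-08) and by 4.44 ± 0.08 in wild type (limma, adjusted p = 6.25e-10). The difference of the responses was -1.79 ± 0.11 (limma, adjusted p = 1.2e-05), the largest in size among the 10 genes. The untreated mutant was higher than untreated wild type by 1.55 ± 0.08 (limma, adjusted p = 8.91e-07). After H2O2 srk1 was lower in the mutant, at -0.23 ± 0.08 (limma, adjusted p = 0.035). That call was lost without the second library of treated wild type, at -0.14 (limma, adjusted p = 0.181), and without the first or second library of the treated mutant, at -0.26 and -0.21 (limma, adjusted p = 0.0987 and 0.17). It was also lost when only the 2 groups compared were fitted (limma, adjusted p = 0.0594).

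**Figure D2:**
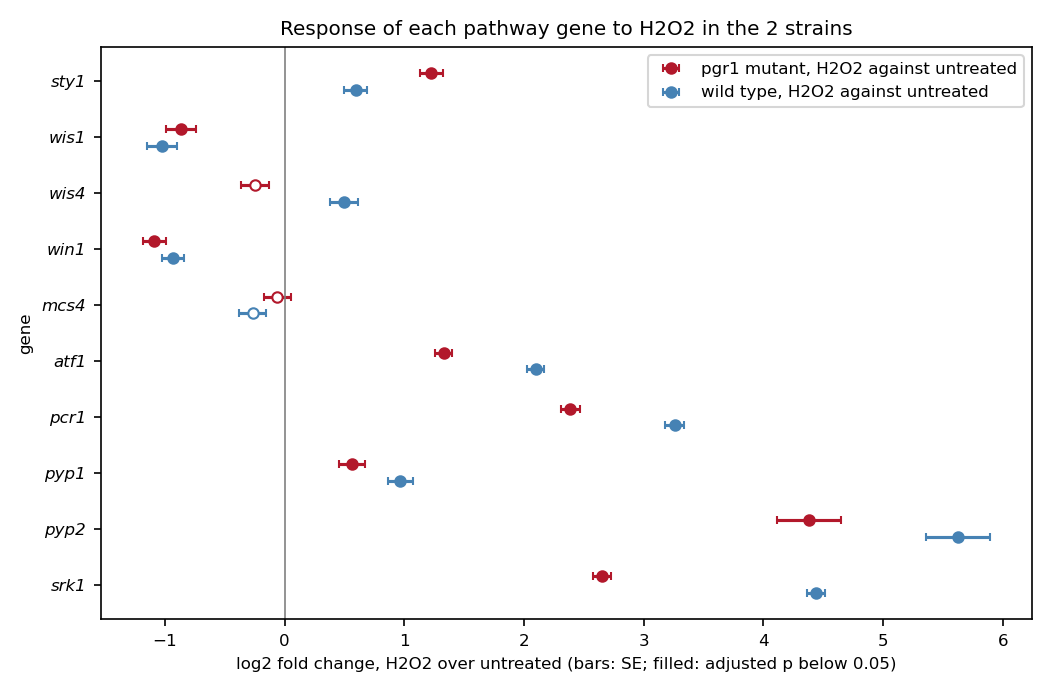
Log2 fold change of each pathway gene, H2O2 over untreated (horizontal axis), in the pgr1 mutant (upper point of each pair) and in wild type (lower point); bars are SE from limma, and filled points have an adjusted p below 0.05. The points for wis4, win1, atf1, pcr1, pyp1, pyp2 and srk1 lie further left in the mutant than in wild type. Those of sty1, wis1 and mcs4 lie further right. The difference of the responses was called for sty1, wis4, atf1, pcr1, pyp2 and srk1.

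Counted over the 10 genes, 6 rose and 2 fell with H2O2 in the mutant, where 35.7% of all genes tested rose, 32.5% fell and 68.2% were called in either direction. In wild type 7 rose and 2 fell, where 37.7% of all genes rose, 34.6% fell and 72.3% were called. Most genes of the table were called in either strain, so the count says little about the 10. Their median change was 0.89 in the mutant and 0.78 in wild type, beside 0.01 in the mutant and -0.00 in wild type for all genes tested. The 5 upstream genes had a median of -0.24 in the mutant and -0.27 in wild type. The other 5, the factors, phosphatases and srk1, all rose in both strains, with medians of 2.39 in the mutant and 3.26 in wild type.

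Between the strains after H2O2, 1 of the 10 was higher in the mutant (sty1) and 4 were lower (wis4, pcr1, pyp1, srk1), against 26.5% and 22.4% of all genes and 49% called in either direction. Without the second library of treated wild type, or without the second library of the treated mutant, 3 of the 10 were called. Between the untreated strains 3 of the 10 were higher in the mutant (atf1, pyp2, srk1) and none was lower, against 22.8% and 15.8% of all genes and 38.5% called. Over all genes that split was 1145 higher and 792 lower, and 980 and 1443 under quantile normalization. No upstream gene of the 5 was called there by limma, and they lay between -0.16 and 0.26. By unadjusted p under 0.05 in limma, 1 of them (win1) passed. At the adjusted threshold, edgeR and DESeq2 also called 0 of them. The strains' responses to H2O2 differed for 6 of the 10, with 1 positive difference (sty1) and 5 negative ones (wis4, atf1, pcr1, pyp2, srk1), against 12% and 15.3% of all genes and 27.3% called.

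Levels of different genes can be set side by side only per length, and were divided by the RefSeq transcript length. That length includes untranslated ends, whose share differs between genes. The pcr1 transcript of 1459 bases holds 516 coding bases, and the atf1 transcript of 2791 holds 1701. The order and the ratios between genes depend on this choice, and none was computed per coding length. In normalized counts per kb, sty1 led in the treated mutant at 5372 ± 131 (SD, n = 2), above srk1 at 3864 ± 87.7, pyp2 at 3002 ± 25.4, pcr1 at 2640 ± 106 and atf1 at 2140 ± 60.5. In treated wild type srk1 at 4550 ± 420 and pcr1 at 4357 ± 251 overlapped, followed by sty1 at 3874 ± 209 and pyp2 at 3668 ± 143, which overlapped each other, and atf1 at 2046 ± 33.7. Thus sty1 stood above every one of its induced partners in the treated mutant, and ranked 3 in treated wild type.

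In the untreated mutant sty1 led at 2296 ± 22.2 per kb, followed by atf1 at 852 ± 66.5, mcs4 at 776 ± 8.35 and srk1 at 614 ± 7.66. In untreated wild type sty1 at 2579 ± 355 and mcs4 at 803 ± 76.2 were followed by wis4, atf1 and pcr1 between 455 and 501, whose neighbours overlapped, while srk1 ranked 9 at 209.2 ± 11.14. In both untreated groups pyp2 came last, at 154 ± 78 per kb in the mutant and 74.1 ± 5.57 in wild type. In both treated groups win1 came last, at 198 ± 9.67 per kb in the mutant and 184 ± 16.3 in wild type, next to wis1.

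Ratios within a library do not depend on the size factors. The ratio of atf1 to pcr1 per length was 0.804 and 0.818 in the treated mutant, 1.69 and 1.69 in the untreated mutant, 0.484 and 0.456 in treated wild type, and 1.03 and 1.07 in untreated wild type. It was lower with H2O2 in both strains and higher in the mutant in both conditions, with no overlap between groups. The ratio of wis4 to win1 was 2.39 and 2.2 in the treated mutant, 1.34 and 1.22 in the untreated mutant, 3.66 and 4.03 in treated wild type, and 1.42 and 1.44 in untreated wild type. It was higher with H2O2 in both strains. The ratio of pyp2 to pyp1 was 5.24 and 5.48 in the treated mutant, 0.518 and 0.278 in the untreated mutant, 5.5 and 4.49 in treated wild type, and 0.222 and 0.173 in untreated wild type. Under treatment the strains overlapped in this ratio. The ratios are given as a description, with no test.

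**Figure D3:**
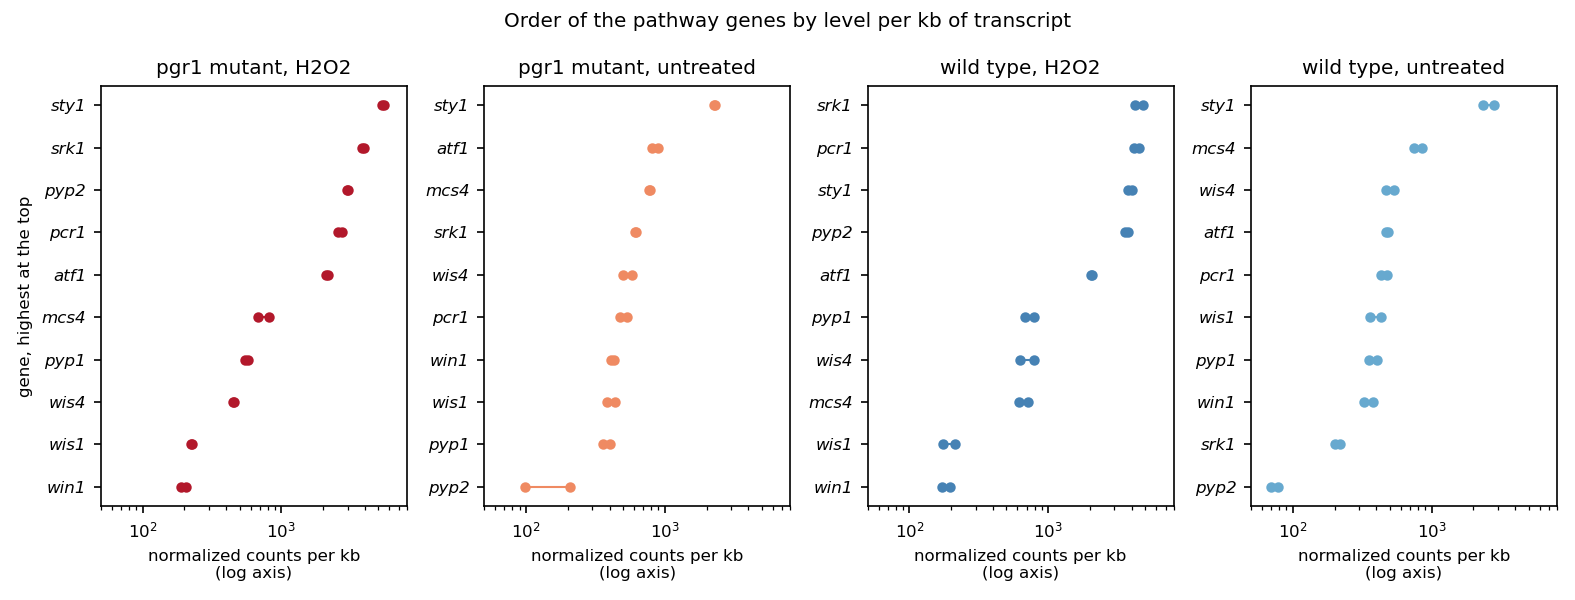
The 10 pathway genes in each group, ordered by mean level in normalized counts per kb of transcript (horizontal log axis), with a point for each of 2 libraries. The order differs between the groups: sty1 leads in all but treated wild type, and pyp2 is last in both untreated groups and win1 in both treated ones.

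Above the kinases, mpr1 and the peroxiredoxin gene tpx1 had the largest rises with H2O2 among the 6 phosphorelay and sensor genes. The gene mpr1, which encodes the phosphotransfer protein that passes the signal from the histidine kinases to Mcs4, had 4193 and 4097 normalized counts in the treated mutant, against 1464 and 1330.3 without peroxide. In treated wild type it had 4783 and 5248, against 1247 and 1141 without peroxide. It rose by 1.57 ± 0.08 in the mutant and by 2.07 ± 0.08 in wild type, and the difference of -0.50 ± 0.11 passed (limma, adjusted p = 0.0112). Among the histidine kinase genes, mak1 rose in both strains, by 0.48 ± 0.07 in the mutant and 0.40 ± 0.07 in wild type. The peroxide-sensing kinase gene mak3 fell in both, at -0.42 ± 0.07 in the mutant and -0.39 ± 0.07 in wild type. Its partner mak2 was at -0.00 ± 0.07 in the mutant and fell in wild type, at -0.46 ± 0.07, a difference of 0.46 ± 0.10 (limma, adjusted p = 0.00937). The gene tpx1, whose product helps to relay peroxide to Sty1, rose by 1.87 ± 0.09 in the mutant and 2.11 ± 0.09 in wild type, and it was higher in the mutant by 1.86 ± 0.09 after H2O2 and by 2.11 ± 0.09 untreated. The glyceraldehyde phosphate dehydrogenase gene tdh1, whose product binds Mcs4, was higher in the untreated mutant by 1.12 ± 0.14 (limma, adjusted p = 3.83e-04). Its reads are uncertain, since 23% of its 31-base words recur elsewhere among the transcripts. Of these 6 genes, 3 rose and 1 fell with H2O2 in the mutant, where 35.7% of all genes rose and 32.5% fell, and 4 rose and 2 fell in wild type, where 37.7% rose and 34.6% fell.

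Among the 4 genes of type 2C phosphatases, a family with members that also remove phosphate from Sty1, ptc1 moved like atf1. It had 5255 and 5174 normalized counts in the treated mutant, 1798 and 1975 in the untreated mutant, 5038 and 5678 in treated wild type, and 1002 and 964 in untreated wild type. It rose by 1.47 ± 0.08 in the mutant and by 2.44 ± 0.08 in wild type, a difference of -0.97 ± 0.11 (limma, adjusted p = 4.27e-04), and it was higher in the untreated mutant by 0.94 ± 0.08 (limma, adjusted p = 2.48e-05). Its promoter window holds 1 TGACGT. In contrast, ptc4 rose in the mutant, at 0.29 ± 0.08, and fell in wild type, at -0.46 ± 0.07, a difference of 0.75 ± 0.11 (limma, adjusted p = 0.00126). The gene ptc3 rose by 0.38 ± 0.08 in the mutant and 0.54 ± 0.08 in wild type, and ptc2 rose by 0.18 ± 0.07 in the mutant and was at -0.00 ± 0.07 in wild type.

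Of 7 other effectors and regulators, cip1, which encodes a partner of the RNA-binding protein Csx1, rose by 0.92 ± 0.07 in the mutant and 1.03 ± 0.07 in wild type. The gene csx1, whose product stabilises atf1 mRNA in oxidative stress, was not called with H2O2 in either strain but was higher in the untreated mutant by 0.63 ± 0.16 (limma, adjusted p = 0.0117). The F-box DNA helicase gene fbh1 fell in both strains, at -0.71 ± 0.08 in the mutant and -0.74 ± 0.08 in wild type. The low bZIP gene atf21, at 5 to 83 normalized counts, rose by 1.80 ± 0.39 in the mutant and 2.89 ± 0.39 in wild type. The gene atf31 rose by 0.78 ± 0.21 in wild type, but 87.6% of its transcript lies opposite another gene of the table, so its reads are uncertain. In the mutant cip2 fell, at -0.26 ± 0.10. Of the 7 genes, 2 rose and 2 fell in the mutant, and 3 rose and 1 fell in wild type. Over all genes 35.7% rose and 32.5% fell in the mutant, and 37.7% rose and 34.6% fell in wild type. The strains' responses were called as different for 0 of the 7 by limma, and for 0 at an unadjusted p below 0.05, against 27.3% of all genes called.

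Of 12 known targets of Sty1 and Atf1 outside the 10, all were higher in the untreated mutant, with a median of 1.76 (22.8% of all genes were higher). After H2O2, 5 of the 12 were higher in the mutant and none lower, with a median of 0.12 (26.5% of all genes were higher). The difference of the responses, mutant minus wild type, was negative for 10 of the 12 and positive for 1, with a median of -1.83, beside -0.01 for all genes (15.3% negative and 12% positive). For each gene this difference equals the treated strain difference minus the untreated one, so it restates both comparisons and is not a separate result. For cta3 the mutant response was a fall, at -4.09 ± 0.61, and the wild-type value of 1.12 ± 0.61 was not called (limma, adjusted p = 0.126). By size of that difference the leading genes were the cation ATPase gene cta3 at -5.21 ± 0.86, the small heat shock gene hsp16 at -3.38 ± 0.15, the nuclear envelope gene ish1 at -2.68 ± 0.15 and the stress protein gene hsp9 at -2.30 ± 0.23. The catalase gene ctt1 was the exception, named after its values were seen, at 1.11 ± 0.21 (limma, adjusted p = 0.0056). It had 102945 and 113163 normalized counts in the treated mutant, 1574 and 1077 in the untreated mutant, 38141 and 35219.8 in treated wild type, and 953 and 949 in untreated wild type. For cta3 the untreated mutant had 1499 and 1836 normalized counts and the other groups 30.6 to 211. Of its transcript 85.6% lies opposite another gene, of hsp9 53.1% and of ish1 24.4%. The list was drawn up with earlier results of these data known and is not independent evidence of a direction. TGACGT stood in the 250-base promoter windows of 4 of the 12, gpd1, ctt1, ntp1 and ish1, against 5.53% of 5096 protein-coding genes. It also stood in that of 1 of 6 phosphorelay and sensor genes (mak3), 1 of 4 type 2C phosphatase genes (ptc1) and 1 of 4 pheromone cascade genes (byr2). The effectors and regulators, the Pmk1 cascade and the starvation markers had none.

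The yeast has other MAP kinase cascades, and their genes were set beside those of Sty1. In the cell integrity cascade of Pmk1, the kinase genes pek1 and pmk1 did not follow wis1 and sty1 throughout. The MAP kinase kinase gene pek1 fell with H2O2, at -0.64 ± 0.08 in the mutant and -0.70 ± 0.08 in wild type, while the MAP kinase gene pmk1 rose by 0.17 ± 0.06 in the mutant and was at -0.02 ± 0.06 in wild type. The MAP kinase kinase kinase gene mkh1 rose by 1.03 ± 0.09 in the mutant and 0.76 ± 0.09 in wild type, and it was also higher in the mutant by 0.84 ± 0.09 after H2O2 and 0.56 ± 0.09 untreated. No gene of the 6 in this cascade had a called difference of responses (limma, lowest adjusted p = 0.147), and 0 passed at an unadjusted p below 0.05, against 27.3% of all genes called.

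In the pheromone cascade, spk1 was lower with H2O2, at -2.30 ± 0.16 in the mutant and -2.21 ± 0.16 in wild type. Of its transcript 77.3% lies opposite another gene of the table, so these reads are uncertain. The unknown strand setting also touches byr1 (100% opposite another annotated gene), byr2 (69.4%), pek1 (91.9%), pmk1 (79.4%), mkh1 (60%), ptc1 (71.6%), ptc3 (56.1%), fbh1 (79.5%), atf21 (100%), fus1 (75.4%) and isp4 (96.1%). The same holds for mei2 (42.2%) and cip2 (40.5%), and for gpd1 (84.7%), ntp1 (58.2%) and fbp1 (100%) of the Sty1-Atf1 targets. Further genes of the lists are touched as well. The MAP kinase kinase gene byr1 was at -0.13 ± 0.07 in the mutant and rose by 0.55 ± 0.07 in wild type, and byr2 rose by 0.58 ± 0.09 in the mutant and 1.13 ± 0.09 in wild type. Both had negative differences of responses, at -0.68 ± 0.10 for byr1 (limma, adjusted p = 0.00182) and -0.54 ± 0.12 for byr2 (limma, adjusted p = 0.0106). Of 6 markers of starvation and sexual development, a state that Sty1 and Atf1 also control, ste11, the master regulator of mating genes, fell in both strains, at -1.77 ± 0.26 in the mutant and -3.02 ± 0.26 in wild type. The meiosis gene mei2 fell too, at -1.84 ± 0.19 in the mutant and -2.33 ± 0.19 in wild type. The gene isp7 fell as well, at -1.25 ± 0.39 in the mutant and -1.01 ± 0.39 in wild type, and isp4 was at -0.81 ± 0.46 in the mutant (limma, adjusted p = 0.146) and fell in wild type, at -1.85 ± 0.46. Both wild-type falls rest on libraries that stood far apart. In wild type isp7 had 317 and 939 normalized counts treated, against 1055 and 1150 untreated. There isp4 had 175 and 280 treated, against 443 and 1436 untreated. The autophagy-related protease gene isp6 moved the other way, rising by 0.82 ± 0.10 in the mutant and 2.34 ± 0.10 in wild type, and so did the mating gene fus1, by 0.73 ± 0.23 in the mutant and 1.58 ± 0.23 in wild type. Of the 6, then, 2 rose and 3 fell in the mutant and 2 rose and 4 fell in wild type, beside 35.7% and 32.5% of all genes in the mutant and 37.7% and 34.6% in wild type.

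**Figure D4:**
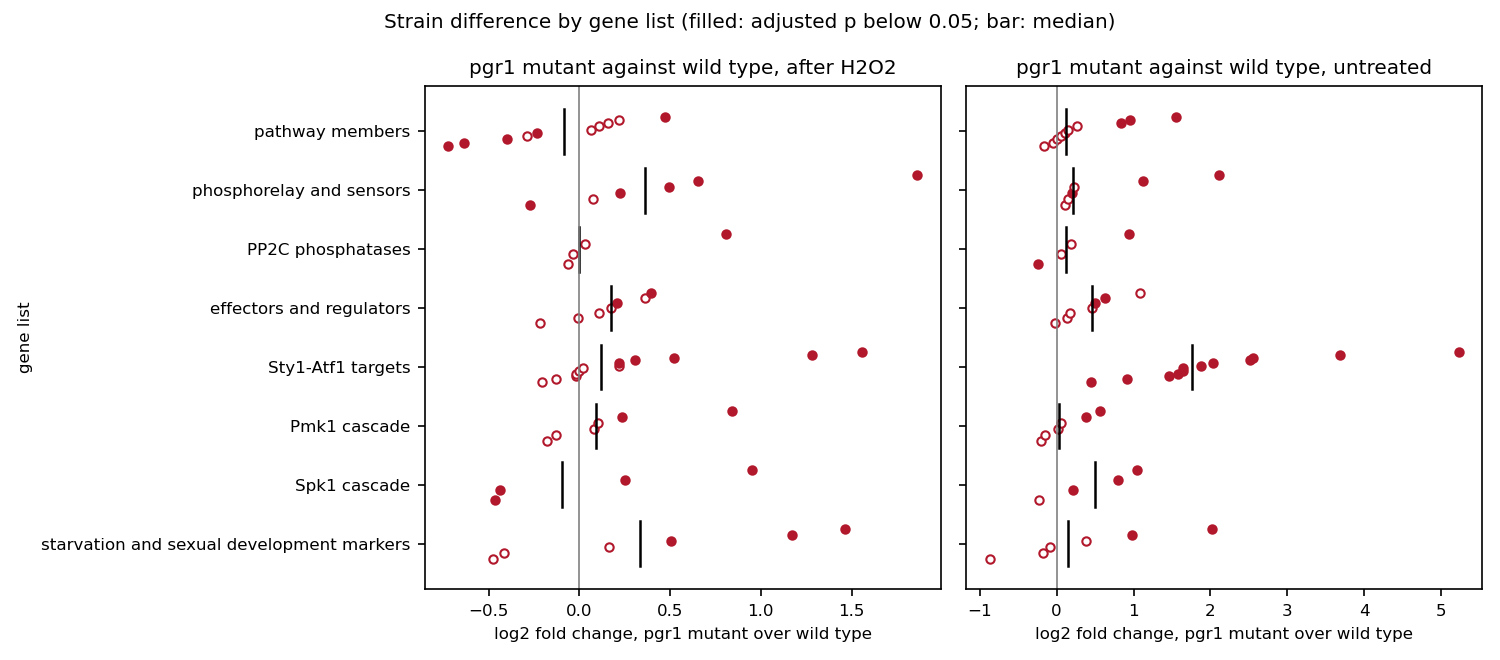
Log2 fold change of the pgr1 mutant over wild type (horizontal axes, on different scales) after H2O2 on the left and untreated on the right, for each gene of the lists; filled points have an adjusted p below 0.05 and the bar is the list's median. Untreated, the 12 Sty1-Atf1 targets all lie right of 0, with a median of 1.76, while the 10 pathway members have a median of 0.13.

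For the 3 pathway genes with the widest range of group means, the genes with the most similar course over the 8 libraries were sought in the whole table. Likeness was the root-mean-square difference of log2 values after centring each gene. The closest to srk1 were the glutathione peroxidase gene gpx1 at 0.157, SPCC16A11.15c at 0.159 and tcb2 at 0.206. The closest to pyp2 were smp4 at 0.282, gut2, which encodes the mitochondrial glycerol-3-phosphate dehydrogenase, at 0.299, and SPBC11C11.06c at 0.396. The closest to pcr1 were SPCC594.04c at 0.128, the retrotransposon Tf2-11 at 0.185, whose reads are shared with near-identical copies and so are uncertain, and SPAPB1A10.05 at 0.2. Within the 10 genes pcr1 was the nearest to srk1, at 0.642, and srk1 the nearest to pyp2, at 0.812.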

How the data were processed

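The deposited table holds a signal per gene that the authors made by dividing read counts by a size factor for each library (DESeq2-normalized counts). Per the submitters' processing notes, the tools were Trimmomatic and FastQC for reads, Salmon and DESeq2 for quantities, with genome build ASM294v2; versions and strand setting are not given. The 1 line that names no gene was left out. Values were whole multiples of 1 read, within 0.05 reads, for 99.98% to 100% of genes, so reads could be recovered for count tests. RefSeq ASM294v3, another build, gave symbols (5129 of 5165 identifiers matched), lengths and promoters, and no coordinates are printed. Genes with at least 10 in at least 2 libraries (5028, with 137 left out) were fitted as log2(value + 1) with limma 3.58.1 (R 4.3.3, trended prior variance, 1 mean per group, 4 residual degrees of freedom, two-sided, Benjamini-Hochberg over all genes tested). A fold change on this scale understates that of low genes. The fit was tested on simulated data in which a small share of genes changed, in 1 group only. That setting does not probe the scaling where most genes are called, as here. Alternatives were other pseudocounts (0.5, 5), filters and scalings, edgeR 4.0.16 and DESeq2 1.42.0 on recovered reads, only the 2 groups compared, a replicate block, and leaving out each library. The members and lists (55 entries, all matched) were chosen with earlier results of these data known. Named genes are the 10 members, list genes called in a comparison (for the Sty1-Atf1 targets the 4 with the largest absolute change) and the 3 genes closest in course to each of the 3 members with the widest range.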

Additional observations from a re-analysis of the deposited data

Results flagged for a closer look

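For 6 of the 10 genes the response to H2O2 differed between the strains by the test of the difference itself (limma, mutant response minus wild-type response, log2). Over all genes tested 27.3% were called in that test, 12% with a positive and 15.3% with a negative difference. The values of the 6 genes were 0.63 for sty1, -0.74 for wis4, -0.77 for atf1, -0.87 for pcr1, -1.25 for pyp2 and -1.79 for srk1. For wis4 the responses pointed in opposite directions, and the mutant's own was not called. For pyp2 the value rests on untreated mutant libraries of 533 and 252 normalized counts, and its call was lost under quantile normalization, at -1.03, and under other settings.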

How the results depend on the processing

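Of the alternative values for the single pathway genes, 842 kept their direction and side of the threshold, 22 newly passed, 17 no longer passed and 9 turned sign. No value that turned sign was called: pyp1 between the untreated strains was at -0.055 with quantile normalization, -0.010 with TMM and -0.011 with edgeR, and leaving out single libraries gave -0.094 to 0.11 for pyp1, -0.073 to 0.19 for wis1 and -0.14 to 0.052 for mcs4 in that comparison, and -0.20 to 0.075 for mcs4 with H2O2 in the mutant. Pseudocounts, filters and DESeq2 changed no call of a pathway gene. When single libraries were left out, genes called between the treated strains numbered 1628 to 2488, with 3 to 6 of the 10 pathway genes, and genes with different responses 776 to 1400. The lowest of these counts came without the second treated mutant library; without the first, 909 genes had different responses. One sample in a group is then assumed to vary like the other groups, and the cause of these drops was not tested. Deviations of same-numbered libraries were correlated over 5028 genes. The values were 0.16 between the treated and untreated mutant and 0.34 between treated and untreated wild type. They were -0.02 between the treated strains and 0.37 between the untreated strains. The labels give these libraries a shared number and do not say whether they were handled together, and the main fit used no pairing. The replicate block called 3638 genes with H2O2 in the mutant, 3822 in wild type, 2794 between the treated strains, 2345 between the untreated strains and 1684 for the difference, and it added mcs4 in wild type (limma, adjusted p = 0.00827) and win1 untreated (limma, adjusted p = 0.0428). In the 1000-base promoter window, 3 of the 10 genes held TGACGT.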
